A study of Homo sapiens with 12 samples.

Results

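The genes described here encode the nuclear part of respiratory complex I, the NADH dehydrogenase of the inner mitochondrial membrane. They were chosen by name: every protein-coding gene of the count files with a symbol that starts NDUFA, NDUFB, NDUFC, NDUFS or NDUFV, leaving out assembly factors (NDUFAF) and pseudogenes. This gave 40 genes of 63677 gene identifiers. Of these, 37 encode subunits of the complex. The other 3 carry the name but are no subunits: NDUFA4, now assigned to cytochrome c oxidase (complex IV), its paralog NDUFA4L2, and the read-through gene NDUFC2-KCTD14. A filter on low counts (at least 10 summed over all samples) kept 39, and NDUFC2-KCTD14 had 0 counts in all 12 samples.

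Complex I takes electrons from NADH, passes them along iron-sulfur clusters in its matrix arm to ubiquinone, and pumps protons through its membrane arm. Its catalytic core is made of nuclear-encoded subunits in the matrix arm and mitochondrially encoded subunits in the membrane arm. Accessory subunits surround the core and serve its assembly and stability. The NADH-binding tip of the matrix arm is called the N module.

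The RNA came from LNCaP, an established androgen-responsive prostate cancer cell line. In the Bag-1L knockout (KO) line a TALEN, an engineered nuclease, had removed the start codon of Bag-1L, the longest protein made from BAG1, and the methods describe growing out single clones, so that the genotype and the clone cannot be told apart. Both the KO line and the TALEN control line were kept in full medium (FM) or were starved of steroid in charcoal-treated serum (72 h) and then treated for 16 h, with vehicle (ethanol, EtOH) or with dihydrotestosterone (DHT, at 10 nM). There were 2 replicates in each of the 6 groups. Nothing in the labels says whether replicates were separate cultures, so p-values measure only the spread between these samples, which may be technical.

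Gene counts totalled 20826843 to 30354666 per sample. Values below are read counts divided by DESeq2 size factors (normalized counts) unless another scale is named. Fold changes are on the log2 scale, from DESeq2 fitted to all samples, with 1 standard error (SE), and a gene was called when its Benjamini-Hochberg adjusted p over all genes tested was at most 0.05. The luminal markers KLK3 (5354 to 23182) and HOXB13 (4245 to 7868) were high in every sample, while KRT5, TP63, PTPRC, CD3E and CD68 stayed at or below 3.8. The basal keratin KRT14 ran from 0 to 30.7, and was highest in FM, with control samples at 14.4 and 10.7, KO samples at 26.1 and 30.7, and the EtOH and DHT samples at most at 8.1, and the part of other cells in the FM results was not tested. Of the stromal and endothelial markers, COL1A2 and DCN reached at most 9, while COL1A1 (370.3 to 1013) and VWF (127 to 240.7) were not near 0. BAG1 was lower in KO in EtOH (-0.94, SE 0.18, adjusted p 6.35e-06) and in DHT (-1.14, SE 0.18, adjusted p 7.71e-09), and its value in FM was -0.43 (SE 0.18, adjusted p 0.0682). A gene-level count does not separate Bag-1L from the other BAG1 proteins.

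Sequence before the start site is shown for 3 genes, chosen after their values were seen: NDUFB4, the gene called in the most comparisons, and NDUFS7 and NDUFS1, the core subunits that were called in opposite directions. RefSeq windows on GRCh38.p14 were found for 33 of the 40 genes. Shown are 250 bases, 5′ to 3′ on the gene's strand, from chr3:120596086-120596335 (+) for NDUFB4, chr19:1383657-1383906 (+) for NDUFS7 and chr2:206159445-206159694 (-) for NDUFS1. Capitals mark the letters searched for 2 factors known to act on nuclear respiratory genes: NRF1 (GCATGCG or CGCATGC on either strand, which overlap at a single place in NDUFB4 and in NDUFS7) and ETS factors such as GABP (CCGGAAG or CTTCCGG, in NDUFS1).
NDUFB4: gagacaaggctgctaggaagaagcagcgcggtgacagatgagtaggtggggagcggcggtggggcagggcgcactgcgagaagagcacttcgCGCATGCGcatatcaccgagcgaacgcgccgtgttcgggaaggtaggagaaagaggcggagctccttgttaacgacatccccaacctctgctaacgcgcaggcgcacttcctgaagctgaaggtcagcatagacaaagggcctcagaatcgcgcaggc
NDUFS7: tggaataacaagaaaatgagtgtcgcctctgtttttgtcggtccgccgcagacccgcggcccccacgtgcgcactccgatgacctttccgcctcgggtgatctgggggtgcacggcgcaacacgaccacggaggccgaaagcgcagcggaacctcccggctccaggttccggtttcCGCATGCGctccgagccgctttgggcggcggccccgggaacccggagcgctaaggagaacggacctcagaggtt
NDUFS1: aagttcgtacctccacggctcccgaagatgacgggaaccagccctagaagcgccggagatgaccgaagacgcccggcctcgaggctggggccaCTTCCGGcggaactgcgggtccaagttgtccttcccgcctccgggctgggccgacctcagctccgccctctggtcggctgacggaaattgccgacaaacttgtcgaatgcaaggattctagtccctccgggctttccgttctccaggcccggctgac
In windows of 300 bases, which run 50 bases past the start site, the NRF1 letters were found in 5 of the 33 genes (15.2%) and in 4.1% of 27305 windows of all genes. The ETS letters were found in 15.2% and 10.7%, and the YY1 letters (AAGATGG or CCATCTT) in 21.2% and 6.1%. These matches describe letters in a window, and no binding was measured.

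Most of the genes were abundant. In TPM, a level per length and library size computed from the counts and 1 canonical transcript per gene, NDUFB4, a small subunit of the distal membrane arm, had the highest median level over the 12 samples, 1080 TPM (771 to 1510). NDUFS5, a subunit on the intermembrane space side, followed with 961 TPM (803 to 1350), then NDUFB10 with 786 TPM (666 to 1040) and NDUFA1 with 708 TPM (605 to 823). The ranges of neighbours in this order overlapped. Among nuclear core subunits the median level was 355 TPM for NDUFV1, which binds NADH, and 282 TPM for NDUFS8. It was 250 TPM for NDUFS3, 49.4 TPM for NDUFS7, 31.6 TPM for NDUFS1 and 1.65 TPM for NDUFV2. The canonical transcript of NDUFS1, at 11660 bases, is the longest of the 40, and its level per length depends on that choice of transcript.

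NDUFV2, NDUFA13, NDUFA7, NDUFB8 and NDUFA11 ranked low, with 1.65, 3.22, 3.66, 19.1 and 35.2 TPM. Each overlaps an annotated read-through gene on the same strand, and the share of its 50-base words found in another gene was 89.4%, 82.4%, 75.9%, 73% and 65.4% in that order. HTSeq assigns a read that fits several genes to none of them, and such ambiguous reads came to 9.44% to 11.6% of the gene counts. The levels of these 5 genes are therefore uncertain. NDUFA4L2, known as a hypoxia-induced gene, was near the detection limit with 2.8 to 17 normalized counts.

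Replicates stood apart for these genes in the control line. Levels were compared as log2(normalized count + 1) for the 35 genes whose normalized counts averaged 100 or more. Control EtOH replicate 2 was above replicate 1 in 34 of 35 genes, by a median of 0.54, or 1.46-fold, and control DHT replicate 2 was above replicate 1 in 34 of 35 by a median of 0.36. In the other groups the median of replicate 2 minus replicate 1 was 0.01 (control FM), 0.10 (KO FM), -0.13 (KO EtOH) and 0.13 (KO DHT). Control EtOH replicate 2 held the highest value of 25 of the 35 genes. Many of the calls and medians below that rest on these libraries are followed by their values without 1 of them.

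**Figure D1:**
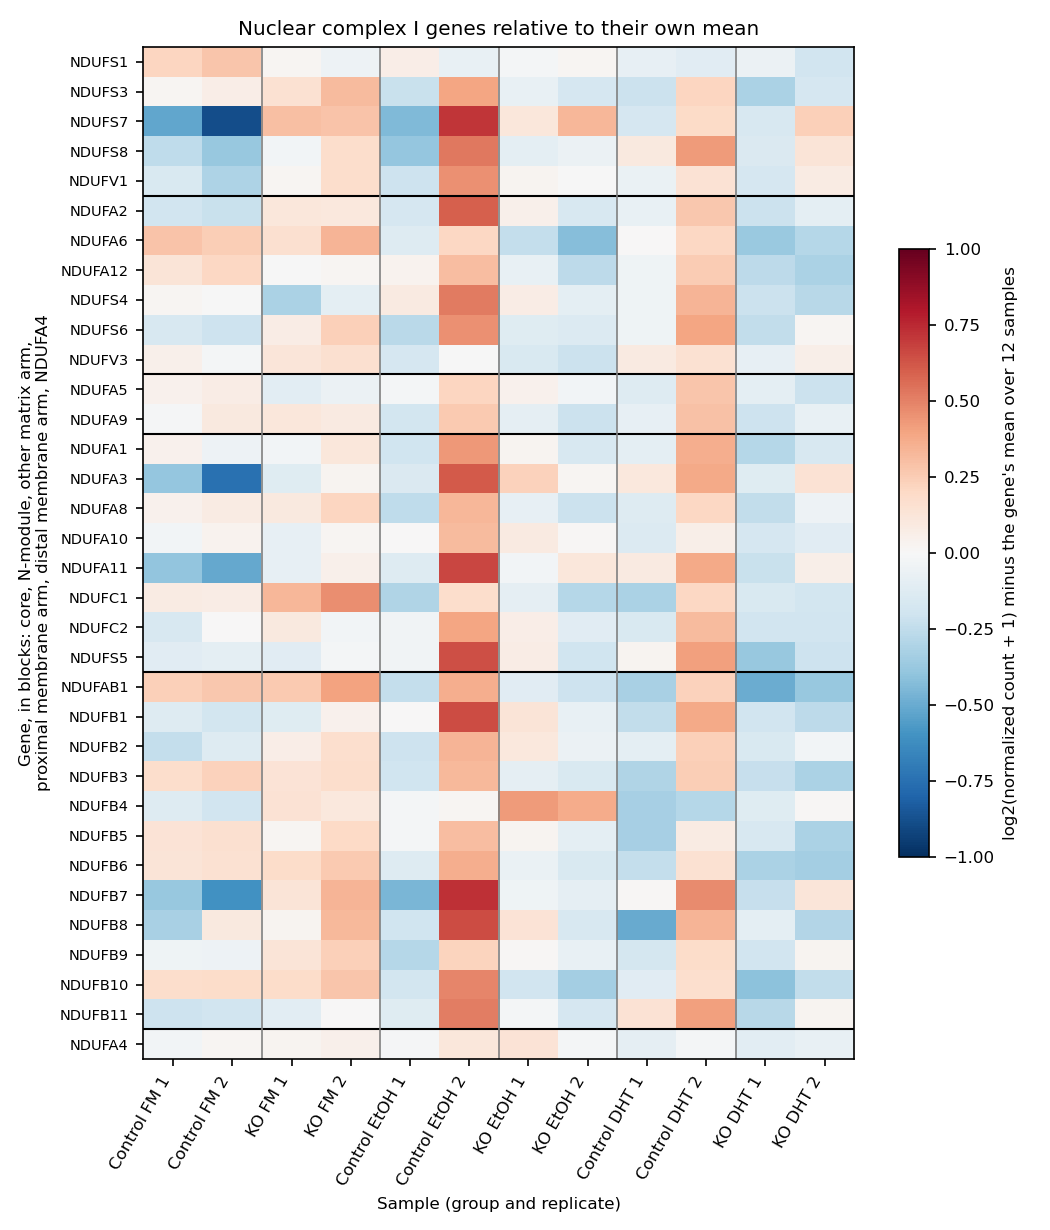
Rows are genes whose normalized counts averaged 100 or more, columns are samples (group and replicate), and colour is log2(normalized count + 1) minus the gene's mean over 12 samples. Control EtOH replicate 2 is the reddest column and holds the highest value of most rows.

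The difference between these replicates went with transcript length. The canonical transcripts of the 40 genes had a median of 693.5 bases, 28 of them under 1000, against 2189 bases over all genes kept. Over 11228 genes with a mean of at least 100, replicate 2 minus replicate 1 had a Spearman rho with length of -0.65 in control EtOH and -0.51 in control DHT, a description across genes that share 1 library. In the other groups it was 0.17 (control FM), -0.38 (KO FM), 0.44 (KO EtOH) and -0.46 (KO DHT). The rho with GC content was 0.37 in control EtOH and -0.17 in control DHT, and over the 6 groups it ran from -0.58 (control FM) to 0.72 (KO DHT). In 1200 other genes of 575 to 1366 bases (median 1002, longer than that of the members), called genes of like length below, the median difference was 0.40 in control EtOH and 0.24 in control DHT. This range was narrowed after the data were seen: a range of 494 to 5111 bases gave 0.10 and 0.07 over 8130 genes, whose median length was 2614.5 bases. With that wider range the medians of the fold changes were 0.03 (DHT in control), 0.01 (DHT in KO), -0.05 (KO in EtOH), -0.07 (KO in DHT), 0.02 (KO in FM), 0.03 (FM in control) and 0.08 (FM in KO). They were 0.07 for the difference in FM response and 0.10 for the KO effect in FM minus that in DHT, so that the medians of the narrower range given below depend on this choice.

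**Figure D2:**
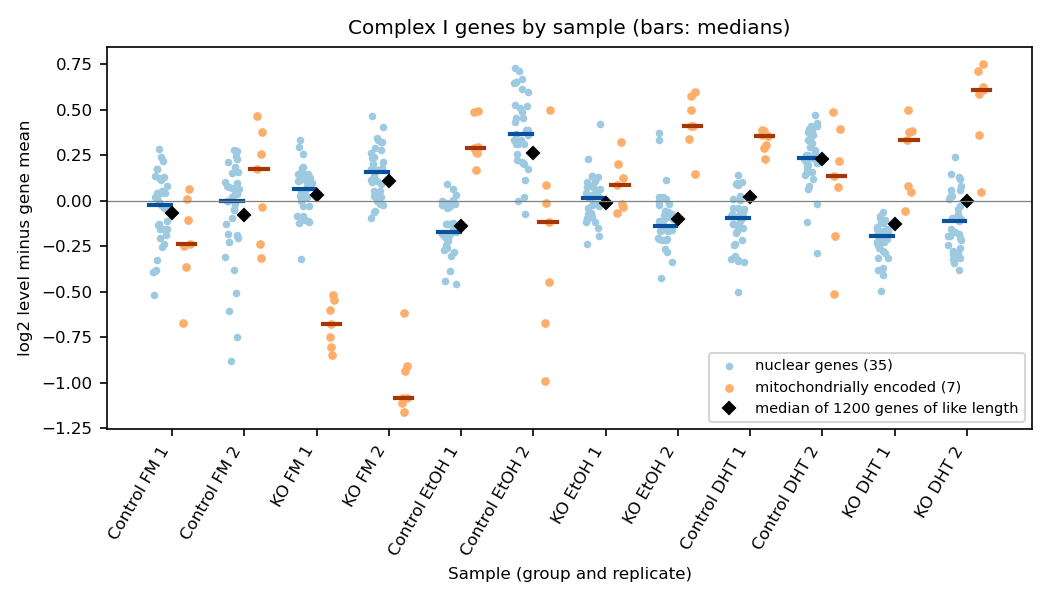
The vertical axis is the log2 level minus the gene's mean over 12 samples. Points are genes, bars are medians and diamonds are medians of the 1200 genes of like length. The nuclear genes and the genes of like length are both highest in control EtOH replicate 2 (0.36 and 0.26), and the mitochondrially encoded genes are lowest in KO FM (-0.68 and -1.08).

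Loss of Bag-1L in EtOH left 1 of the 39 genes past the threshold, NDUFB4, which was higher in KO. Of all genes tested, 9.81% were called, 4.71% higher and 5.1% lower. NDUFB4 read 8722 and 8955 in the control samples against 11852 and 11449 in the KO samples. The groups did not overlap, and 23.4% of all genes tested were higher in KO without overlap. The difference in the DESeq2 fit was 0.40 (SE 0.09, adjusted p 0.000277). The call was lost without KO EtOH replicate 1 (0.37, adjusted p 0.085) and in a fit of these 4 samples alone (0.39, adjusted p 0.23).

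No member was called lower in EtOH, although 34 of 39 values were negative. The median was -0.21, against -0.01 over all genes tested and -0.15 over genes of like length, and it was -0.11 with the length trend removed. NDUFB10, of the distal membrane arm, had the most negative value, -0.45 (SE 0.17, adjusted p 0.0807), from 6123 and 9748 in control against 6089 and 5499 in KO. The core subunits ran from -0.24 (NDUFS3) to 0.04 (NDUFV2).

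The EtOH comparison turned on which control replicate entered. Without control EtOH replicate 1 more genes were called, of the members and of all genes, and the median was -0.48. Without control EtOH replicate 2 the median was 0.10. NDUFS7, a core iron-sulfur subunit near the ubiquinone site, read 326.4 and 727.1 in control and 479.3 and 559 in KO. Its KO samples lay between the controls, and its difference went from -0.02 with all samples to 0.67 (adjusted p 0.0224) without control EtOH replicate 2.

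In DHT, 3 members were lower in KO and 1 was higher of 38 tested. Of all genes tested, 16.4% were called, 8.73% lower and 7.63% higher. NDUFS5 read 6148 and 8005 in control against 4641 and 5232 in KO, a difference of -0.52 (SE 0.19, adjusted p 0.0363). NDUFA6, a matrix arm subunit of the LYR family, read 2078 and 2385 against 1599 and 1698 (-0.44, SE 0.14, adjusted p 0.0134). NDUFA12, a matrix arm subunit related to the assembly factor NDUFAF2, read 2048 and 2507 against 1758 and 1691 (-0.40, SE 0.13, adjusted p 0.0223). In all 3 both KO samples lay below both controls, as in 30.7% of all genes tested. Without control DHT replicate 2 the DESeq2 values were -0.32 (adjusted p 0.486) for NDUFS5, -0.33 (adjusted p 0.254) for NDUFA6 and -0.25 (adjusted p 0.421) for NDUFA12.

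NDUFB4 was again higher in KO in the DESeq2 fit, with 7019 and 7258 in control against 8141 and 8905, without overlap (0.26, SE 0.09, adjusted p 0.031). Of all genes tested, 26.8% were higher in KO without overlap. The core subunits ran from -0.27 (NDUFS8) to 0.03 (NDUFS7), and none was called. Over the members 36 of 39 values were negative with a median of -0.26, against -0.02 over all genes tested and -0.21 over genes of like length. With the length trend removed the median was -0.11, with 2 calls lower and 1 higher. Without control DHT replicate 1 the median was -0.43. Without control DHT replicate 2 it was -0.04, and the calls were lost without that sample or KO DHT replicate 2. The lower calls were also lost without KO DHT replicate 1. Leaving out either control EtOH replicate, which is no part of the comparison, raised the number of calls on members and over all genes. With edgeR there was 1 call.

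**Figure D3:**
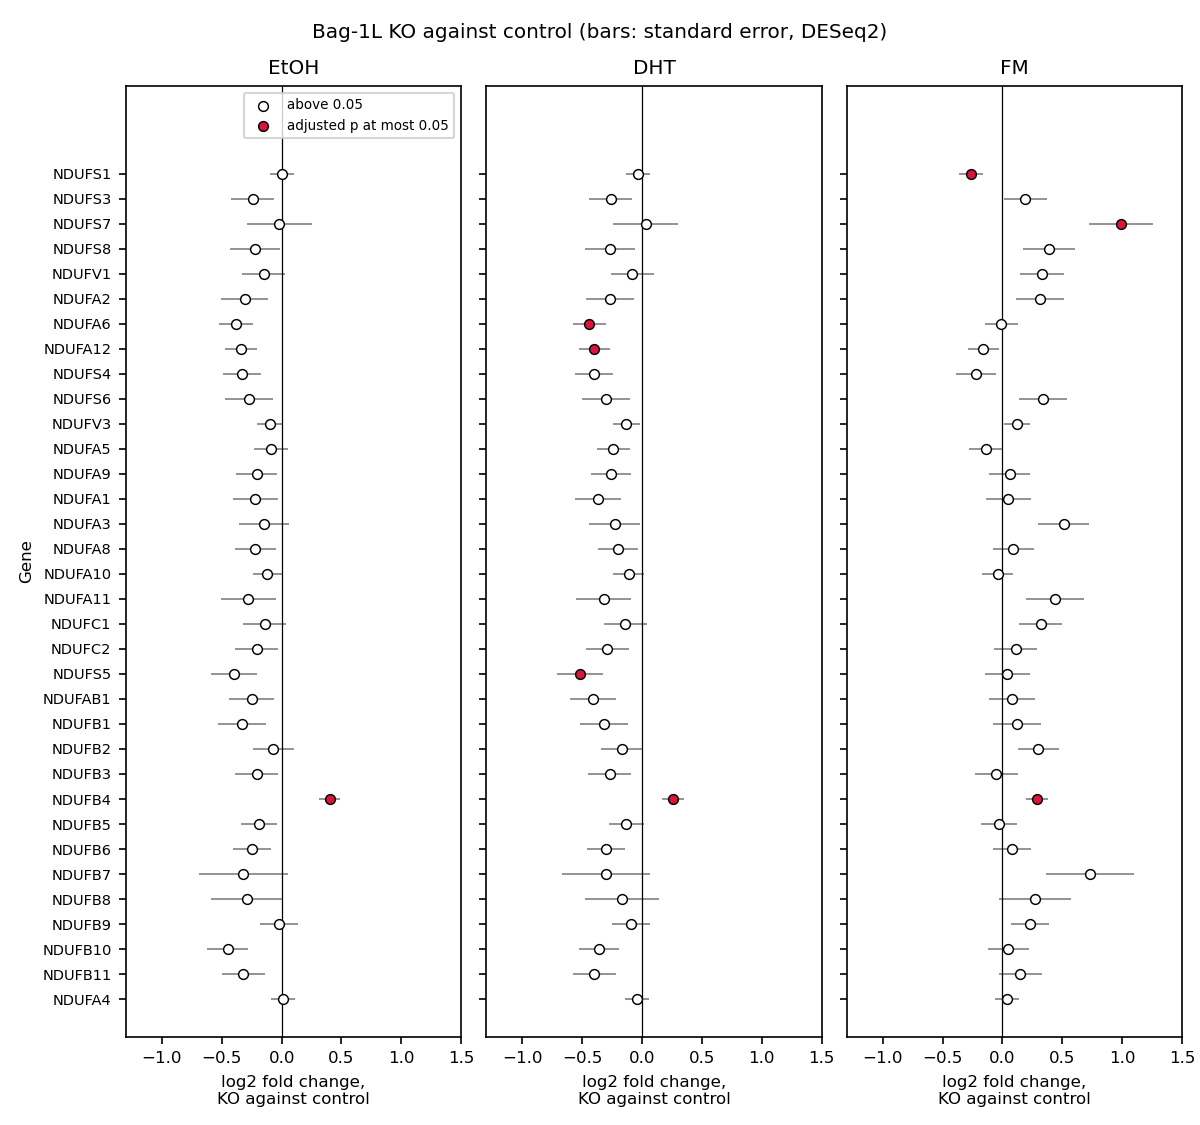
Points are log2 fold changes of KO against control in EtOH, DHT and FM for genes whose normalized counts averaged 100 or more, bars are 1 SE, and red points have an adjusted p of at most 0.05. Most points lie left of 0 in EtOH and DHT and right of 0 in FM, and NDUFB4 is red and right of 0 in all 3 panels.

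In FM, 2 members were higher in KO and 1 was lower of 38 tested. Of all genes tested, 18.5% were called, 9.27% higher and 9.24% lower. NDUFS7 read 309.2 and 240.3 in control against 545.6 and 542.5 in KO, a difference of 0.99 (SE 0.27, adjusted p 0.00435) and the only call past 1.5-fold in any KO comparison. NDUFB4 read 8096 and 7756 against 9778 and 9540 (0.29, SE 0.09, adjusted p 0.0132). NDUFS1, the core subunit with several iron-sulfur clusters, read 5217 and 5438 against 4558 and 4325 (-0.26, SE 0.10, adjusted p 0.043). None of the 3 had overlapping groups, but 34.7% of all genes tested were higher in KO without overlap and 38.6% lower. NDUFS7 lies at chr19:1383526-1395588 (+, GRCh37), and 36.1% of its exon bases are covered by a gene on the opposite strand, while the strand setting of the counting is not given in the sources used here.

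Of the core subunits that were not called, NDUFS8 read 0.39 (adjusted p 0.197), NDUFV1 0.33 (adjusted p 0.181) and NDUFS3 0.19 in the DESeq2 fit, and NDUFV2 read 0.53 from few counts. Over the members 30 of 39 values were positive with a median of 0.12, against -0.01 over all genes tested and 0.12 over genes of like length. Over the 35 members of at least 100 counts the values had a rho of 0.78 with the GC content of the transcript, and over 11228 genes the rho was 0.56 with GC content and -0.37 with length. With the length and GC trends removed, 1 member was called, lower in KO, and the difference was 0.37 (adjusted p 0.101) for NDUFS7 and 0.04 (adjusted p 0.843) for NDUFS1. A fit of the 4 FM samples alone called 14 members, 13 of them higher, and 5065 of all genes, against 2776 in the fit of all samples. The calls were lost without control FM replicate 2 and without either KO FM replicate. NDUFS7 alone kept its call without control FM replicate 1. Without either control EtOH replicate more genes were called, of the members and of all genes.

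NDUFB4 was the one member called in all 3 KO comparisons. It lies at chr3:120315175-120321354 (+, GRCh37) and shares 12.8% of its 50-base words with a pseudogene. Its 12 pseudogenes in the count files held at most 3 counts in any sample. Of 10 other genes within 1 Mb, KO called 1 higher and 1 lower in EtOH, 1 and 0 in DHT, and 2 and 2 in FM. The DHT call had an adjusted p of 0.0574 in edgeR and was lost without either control DHT replicate or KO DHT replicate 2 (0.19 to 0.28). The FM call was lost without any 1 of the 4 FM samples (0.25 to 0.31), and the FM difference was 0.13 (adjusted p 0.405) with the length trend removed.

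DHT gave few calls among the members. In control cells 1 of 39 fell and 0 rose, where 19.9% of all genes tested were called, 11.2% higher and 8.75% lower. In KO cells 1 of 39 fell and 0 rose, where 13.6% were called, 8.02% higher and 5.57% lower. NDUFB4 was the gene in both lines. From the EtOH and DHT counts given above, it fell in the DESeq2 fit by 0.31 in control (SE 0.09, adjusted p 0.0048) and by 0.45 in KO (SE 0.09, adjusted p 1.12e-05). In each line both DHT samples lay below both EtOH samples, as in 25% (control) and 30.6% (KO) of all genes tested. The control call was lost without control DHT replicate 1 (-0.28, adjusted p 0.0793) and in a fit of those 4 samples alone (-0.29, adjusted p 0.438).

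The core subunits ran from -0.22 (NDUFS7) to 0.13 (NDUFS8) with DHT in control and from -0.25 (NDUFV2) to 0.08 (NDUFS8) in KO, and none was called. The member median was -0.08 in control and -0.12 in KO. In control it was -0.29 without control EtOH replicate 1 and 0.24 without control EtOH replicate 2. The response to DHT was called different between the lines for 0 of 35 members in DESeq2, where 0.438% of all genes tested were (0.237% positive and 0.2% negative), and 0 members had an unadjusted p under 0.05. edgeR also called 0.

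Full medium against EtOH gave 7 calls in the control line: 6 of 39 members fell and 1 rose. Of all genes tested, 34.9% were called, 18.8% higher and 16.2% lower. With the length trend removed there were 12 calls, 7 higher and 5 lower, and with length and GC trends removed 11, 4 higher and 7 lower. From EtOH to FM, NDUFS7 went from 326.4 and 727.1 to 309.2 and 240.3 (-0.94, SE 0.27, adjusted p 0.00283). NDUFA3, a small membrane arm subunit, went from 1137 and 1922 to 960.8 and 749 (-0.84, SE 0.21, adjusted p 0.000332). NDUFA11, another membrane arm subunit, went from 227.4 and 395.9 to 188.8 and 174.1 (-0.78, SE 0.24, adjusted p 0.00417). In these 3 both FM samples lay below both EtOH samples, which were far apart. The same order was found in 32.3% of all genes tested.

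NDUFB1 fell by 0.52 (adjusted p 0.0312), NDUFS5 by 0.45 (adjusted p 0.0459) and NDUFB11 by 0.43 (adjusted p 0.0455) in the same DESeq2 fit. NDUFS1 rose, from 4688 and 4272 to 5217 and 5438 (0.25, SE 0.10, adjusted p 0.033). Its DESeq2 value was -0.06 (adjusted p 0.667) with the length and GC trends removed. The NDUFS1 call was lost without control EtOH replicate 2 (0.19). The member median was -0.16, against -0.14 over genes of like length. Without control EtOH replicate 1 the median was -0.35. Without control EtOH replicate 2 it was 0.07. In that DESeq2 fit NDUFS7 had -0.25 (adjusted p 0.432), NDUFA3 -0.41 (adjusted p 0.0539), NDUFA11 -0.33 (adjusted p 0.298), NDUFB1 -0.16 (adjusted p 0.569), NDUFS5 -0.07 (adjusted p 0.785) and NDUFB11 -0.08 (adjusted p 0.753).

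In KO, 5 of 39 members rose and 1 fell with full medium. Of all genes tested, 31.7% were called, 17.3% higher and 14.4% lower. NDUFC1, a small membrane arm subunit, went from 1615 and 1416 in EtOH to 2168 and 2382 in FM (0.59, SE 0.18, adjusted p 0.00415). NDUFA6 went from 1753 and 1542 to 2316 and 2612 (0.58, SE 0.14, adjusted p 0.000165). Both FM samples lay above both EtOH samples in each, as in 37.3% of all genes tested. In the DESeq2 fit NDUFAB1, the mitochondrial acyl carrier protein, rose by 0.50 (adjusted p 0.0284), NDUFB10 by 0.49 (adjusted p 0.018) and NDUFV3, of the N module, by 0.32 (adjusted p 0.012).

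NDUFB4 fell with full medium in KO (-0.27, SE 0.09, adjusted p 0.0103), and its value in control was -0.16 (adjusted p 0.171). No core subunit was called in KO, where they ran from -0.02 (NDUFS1) to 0.36 (NDUFS3). The member median was 0.15, against 0.13 over genes of like length. With the length trend removed 9 members were called higher and 2 lower. A fit of the 4 samples alone called 13 members, 12 of them higher, and 7254 of all genes, against 5887 in the fit of all samples. Fewer members were called without any 1 of the 4 samples. The median ran from 0.06 (without KO FM replicate 2) to 0.21 (without KO EtOH replicate 1).

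The difference between the lines in this response was tested itself. It was positive, that is, more positive in KO, for 35 of 39 members with a median of 0.36, but 0 of 35 tested were called in DESeq2, where 1.53% of all genes tested were (0.825% positive and 0.702% negative). The largest values were those of NDUFB7 (1.05, SE 0.53, adjusted p 0.313) and NDUFS7 (1.01, SE 0.39, adjusted p 0.168), and 8 members had an unadjusted p under 0.05. edgeR also called 0. Genes of like length had a median of 0.26. The member median was 0.15 with the length trend removed and 0.18 with the length and GC trends removed. Over the 35 members of at least 100 counts the values had a rho of 0.81 with GC content and -0.4 with length. Over 11228 genes the rho was 0.5 with GC content and -0.54 with length. Without control EtOH replicate 1 more genes were called, of the members and of all genes, and the member median was 0.58. Without control EtOH replicate 2 it was 0.07. The KO effect in FM minus that in DHT, compared after these values were seen and sharing the FM samples with this test, had a median of 0.41 (0.34 over genes of like length) and 0 calls of 35, where 2.54% of all genes tested were called (1.46% positive and 1.08% negative). In that comparison 10 members had an unadjusted p under 0.05 in DESeq2, and edgeR called 0. Its median was 0.17 without control DHT replicate 2 and 0.62 without control DHT replicate 1. Over the same 35 members its values had a rho of 0.76 with GC content and -0.5 with length.

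**Figure D4:**
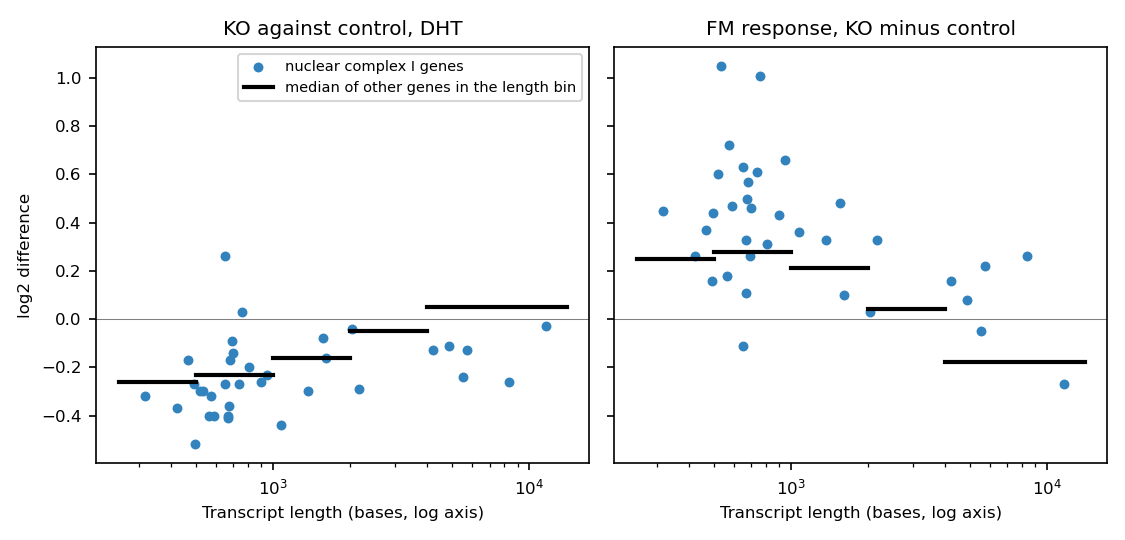
Points are 35 members by canonical transcript length (bases, log axis) and log2 difference, and black bars are the median of other genes in each of 5 length bins. For KO against control in DHT the bars run from -0.26 in the shortest bin to 0.05 in the longest, and for the FM response in KO minus control from 0.25 to -0.18.

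The members were also set beside other genes of the same length bin. In DHT the median KO effect of the 18 members of 500 to 1000 bases was -0.27, against -0.23 for 673 other genes of that length, and that of the 6 members over 4000 bases was -0.13, against 0.05 for 4431 genes. For the difference in FM response the same bins gave 0.49 against 0.28 and 0.12 against -0.18. These are medians over genes of the same libraries and carry no test.

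A minimum change of 1.5-fold beside the adjusted p left 5 of the calls on members: 3 for FM in control (of all genes tested, 21.3% were called this way), 1 for FM in KO (19.3%) and 1 for KO in FM (8.01%). It left 0 for KO in EtOH (5.11%), KO in DHT (7.98%), DHT in control (11.4%), DHT in KO (7.68%), the DHT response difference (0.408%), the FM response difference (1.39%) and the KO effect in FM minus in DHT (2.28%).

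The mitochondrially encoded subunits, MT-ND1 to MT-ND6 and MT-ND4L, form the proton-pumping core of the membrane arm, and 4 of the 7 were lower in KO in FM, with 0 higher, where 9.24% of all genes tested were lower and 9.27% higher. MT-ND1 read 25190 and 32411 in control against 15569 and 12807 in KO (-1.02, SE 0.20, adjusted p 1.66e-05). MT-ND6 read 6562 and 7540 against 4830 and 4117 (-0.66, SE 0.14, adjusted p 0.000114). MT-ND4 (-0.90, adjusted p 0.0338) and MT-ND2 (-0.51, adjusted p 0.0215) were the other calls of the DESeq2 fit. The KO samples lay below the control samples in all 4, as in 38.6% of all genes tested. In EtOH 0 of the 7 were called, where 9.81% of all genes tested were. In DHT MT-ND3 was lower in KO in the DESeq2 fit (-0.32, SE 0.11, adjusted p 0.0344), where 8.73% of all genes tested were lower. That call was lost without control DHT replicate 2 (-0.23). Without control FM replicate 2, 2 of the 4 FM calls were left, MT-ND1 (-0.83) and MT-ND6 (-0.56).

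With full medium 6 of the 7 fell in KO, with values from -0.74 (MT-ND3) to -1.45 (MT-ND2), and 2 fell in control, MT-ND2 by 0.79 and MT-ND3 by 0.69, where 14.4% (KO) and 16.2% (control) of all genes tested fell. The median over the 7 was -1.13 in KO and -0.02 in control, and in control it was 0.20 without control EtOH replicate 1, with 2 calls higher and 1 lower, and -0.30 without control EtOH replicate 2. The difference between the lines was called for MT-ND1 (-1.11, SE 0.28, adjusted p 0.0123) and MT-ND6 (-0.81, SE 0.20, adjusted p 0.00704), while edgeR called 0. With length and GC trends removed there were 0 calls, and the calls were lost without control FM replicate 2, KO FM replicate 2 or KO EtOH replicate 2. Without control EtOH replicate 1 more genes were called, of the 7 and of all genes. DHT called 0 of the 7 in either line, where 19.9% (control) and 13.6% (KO) of all genes tested were called. These counts come from poly(A)-selected RNA, MT-ND4L overlaps MT-ND4, and nuclear copies of mitochondrial DNA can share reads, so they are uncertain.

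**Figure D5:**
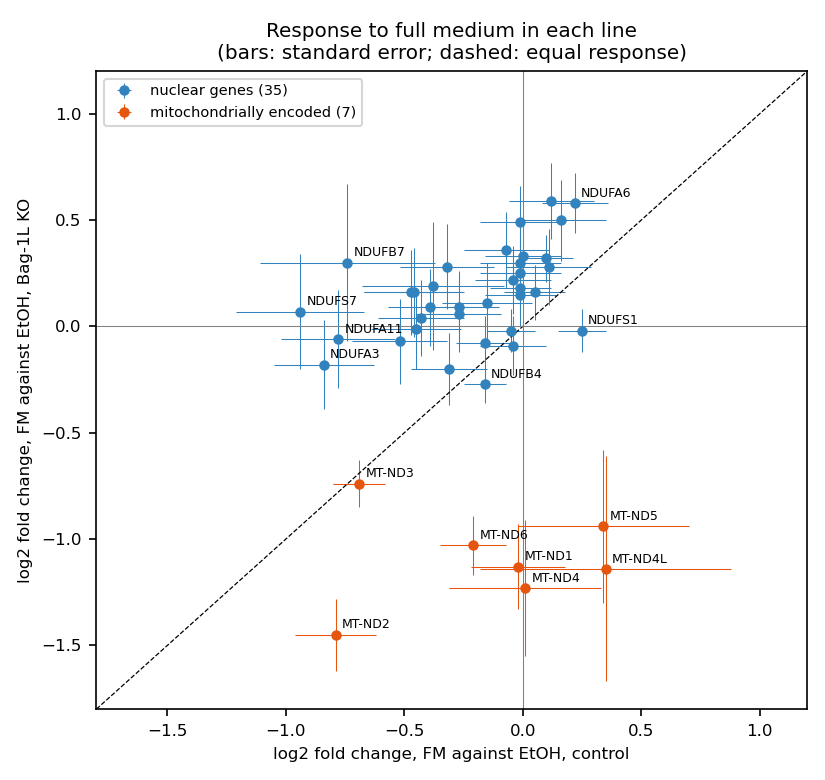
Each point is a gene with its log2 fold change for FM against EtOH in control (horizontal) and in KO (vertical), with 1 SE bars and a dashed line of equal response. All 7 mitochondrially encoded genes lie below the line, and most of the 35 nuclear genes lie above it.

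Of 18 assembly factors, which build the complex without being part of it, NDUFAF6 was higher in KO in EtOH (0.48, SE 0.14, adjusted p 0.00943), in DHT (0.51, SE 0.14, adjusted p 0.00472) and in FM (0.39, SE 0.14, adjusted p 0.0362). NDUFAF2 was lower in KO in EtOH (-0.39, SE 0.14, adjusted p 0.0454) and in DHT (-0.48, SE 0.14, adjusted p 0.00456). In DESeq2 the NDUFAF2 calls were lost without control EtOH replicate 2 (-0.24, adjusted p 0.327) and control DHT replicate 2 (-0.35, adjusted p 0.196). Those of NDUFAF6 were lost without control EtOH replicate 1 (0.37, adjusted p 0.0713), control DHT replicate 1 (0.44, adjusted p 0.072) and either control FM replicate (0.30 and 0.48). With full medium 4 of the 18 rose in control and 5 in KO and 0 fell, where 18.8% and 17.3% of all genes tested rose, with COA1 at 0.55 and FOXRED1 at 0.50 in control, and NDUFAF2 at 0.67 and NDUFAF5 at 0.56 in KO. The control count was 2 higher and 2 lower without control EtOH replicate 1 and 7 higher without control EtOH replicate 2, and in KO leaving out a sample of the comparison gave 3 or 4. With DHT NDUFAF6 fell by 0.44 in control and by 0.41 in KO, and TMEM126B fell by 0.40 in KO. The control call of NDUFAF6 was lost without control DHT replicate 1 (-0.36, adjusted p 0.19) or control EtOH replicate 2 (-0.32, adjusted p 0.136).

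The other respiratory complexes gave few calls for KO. CYC1, cytochrome c1 of complex III, was higher in DHT (0.44, SE 0.12, adjusted p 0.00342) and in FM (0.41, SE 0.12, adjusted p 0.00686). COX6A1 of complex IV was lower in DHT (-0.54, SE 0.17, adjusted p 0.015). Without control DHT replicate 2 both DHT calls were lost (CYC1 0.30, adjusted p 0.158, and COX6A1 -0.36, adjusted p 0.332), and without either control FM replicate the FM call of CYC1 was lost (0.44 and 0.38). No gene of complex II (4 genes) or complex V (16 genes) was called by DESeq2 in the 3 KO comparisons. Of all genes tested, 9.81% (EtOH), 16.4% (DHT) and 18.5% (FM) were called. The medians for KO in EtOH were -0.20 in complexes II and III, -0.26 in complex IV and -0.24 in complex V, beside -0.21 for the complex I genes, and in DHT they were -0.17, -0.17, -0.35 and -0.28 beside -0.26. In FM the medians were -0.04, 0.11, 0.04 and 0.07 in complexes II to V beside 0.12. Those in EtOH turned on the control replicate as for the complex I genes. They were -0.37, -0.40, -0.51 and -0.51 without control EtOH replicate 1. Without control EtOH replicate 2 they were 0.02, 0.03, 0.04 and 0.01. In DHT they were -0.06, -0.03, -0.18 and -0.08 without control DHT replicate 2.

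With full medium in control, COX6A1 (-0.63), COX5B (-0.51) and COX6C (-0.50) fell among 11 complex IV genes, ATP5ME (-0.64) fell and ATP5MC1 (0.39) rose among 16 of complex V, and UQCRC2 (0.21) rose among 9 of complex III. In KO 5 complex V genes rose, led by ATP5MC1 (0.67) and ATP5MC3 (0.52). UQCRFS1 (0.45) and CYC1 (0.33) of complex III and SDHB (0.36) of complex II also rose. Without any 1 of the samples compared, CYC1 (0.33) and SDHB (0.29 to 0.43) lost their calls. UQCRFS1 lost its call without KO FM replicate 2 (0.38) or KO EtOH replicate 2 (0.4). Over all genes tested 18.8% rose and 16.2% fell in control, and 17.3% rose in KO. Leaving out any 1 sample of the KO comparison gave fewer complex V calls. The control falls were lost without control EtOH replicate 2 (COX6A1 -0.29, COX5B -0.04, COX6C -0.18 and ATP5ME -0.14). The UQCRC2 call was lost there too, with its value still at 0.21. ATP5MC1 was not called without control EtOH replicate 1 (0.14), where the medians were -0.42 in complex IV and -0.37 in complex V. With DHT SDHD fell in control (-0.38), a call that was lost without control EtOH replicate 2 (-0.25) or control DHT replicate 1 (-0.21).

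Of 12 regulators of mitochondrial biogenesis, 6 rose and 1 fell with full medium in control, and 5 rose and 0 fell in KO. Over all genes tested 18.8% rose and 16.2% fell in control, and 17.3% rose and 14.4% fell in KO. Leaving out a sample of the comparison gave 5 or 6 rises in control and 3 or 4 in KO. PPARGC1A, the coactivator PGC-1 alpha, went from 51.4 and 56.7 in EtOH to 166.8 and 160.5 in FM in control (1.60, SE 0.26, adjusted p 8.03e-09). In KO it went from 74.6 and 65.9 to 139.9 and 153.4 (1.06, SE 0.25, adjusted p 0.000163). PPARGC1B rose by 1.02 and 0.66, and POLRMT, the mitochondrial RNA polymerase, fell by 0.55 in control and had -0.23 without control EtOH replicate 2, where it was not called. In FM 4 of the 12 were lower in KO, led by PPARGC1B (-0.70) and GABPA (-0.49), and ESRRA was higher (0.39), where 9.24% of all genes tested were lower and 9.27% higher. Without control FM replicate 1 there was 1 call in each direction, and without control FM replicate 2 there were 0. PPRC1 rose with DHT in control (0.47) and in KO (0.50), and the control call was lost without control DHT replicate 1 (0.28).

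NDUFA4, the member that belongs to complex IV, was the steadiest of the 35 genes. Its values ran from 7438 to 8786, a range of 1.18-fold, and it was called in no comparison. NDUFS7 had the widest range, from 240.3 to 727.1 (3.03-fold), with its lowest value in control FM replicate 2 and its highest in control EtOH replicate 2.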

How the data were processed

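Poly(A) RNA of 12 LNCaP samples was sequenced from stranded TruSeq libraries. The authors mapped reads to GRCh37 with TopHat2 2.0.11 (after CASAVA 1.7) and deposited raw read counts per Ensembl gene from HTSeq 0.5.3p3. The strand setting and the Ensembl release are not given in the sources used here. Gene counts totalled 20826843 to 30354666 per sample.

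Genes with at least 10 counts summed (26156 of 63677) were fitted with DESeq2 1.42.0 (R 4.3.3), with 1 coefficient per group, Wald tests and unshrunken fold changes. The procedure was run on simulated counts for DHT in control only. These had no trend with length or GC content, so that run does not bear on such trends. Symbols, positions and lengths came from the GENCODE v44 annotation of GRCh37, which held 55665 of the identifiers. No replicate pair agreed within sampling noise (chi-square per degree of freedom 3.19 to 36.46).

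The members and lists were chosen with earlier results of these data known. Named were the nuclear core subunits, up to 5 largest called rises and falls per comparison with a mean of at least 100, the 3 genes that are no subunits, the 2 largest called genes of each other list, and BAG1. NDUFB10 in EtOH, NDUFB7, NDUFB11, further genes of the lists, the upstream sequences and motifs, the neighbours of NDUFB4 and the narrow length range were chosen after values were seen. Some items are not reported here.

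Alternatives were edgeR 4.0.16 with TMM, DESeq2 with TMM size factors, no filter, at least 10 counts in every sample, only the groups compared, a replicate block, length or length and GC trends removed (97.3% of tested genes had both), a minimum of 1.5-fold, and each sample left out.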

Additional observations from a re-analysis of the deposited data

Results flagged for a closer look

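The response to full medium differed between the lines for 2 mitochondrially encoded subunits, tested as the difference of the 2 responses in DESeq2. The value in KO minus control was -1.11 for MT-ND1 (adjusted p 0.0123) and -0.81 for MT-ND6 (adjusted p 0.00704). Neither was called with edgeR, with length and GC trends removed, or without control FM replicate 2, KO FM replicate 2 or KO EtOH replicate 2, and 1 call was left with the replicate block, with the length trend removed and without control EtOH replicate 2. For MT-ND1 the KO effect in FM also differed from that in DHT, by -1.07 (adjusted p 0.0142), a comparison added after values were seen that shares the FM samples with the first. With 2 samples per group, no group was large enough to be examined for a sample far from the others.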

How the results depend on the processing

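Of the results for single members, 1604 values under an alternative kept their side of the threshold, 114 lost a call, 39 gained one and 3 reversed. With the 1.5-fold minimum the calls were 0 (DHT in control, DHT in KO, KO in EtOH, KO in DHT), 1 (KO in FM), 3 (FM in control) and 1 (FM in KO), by construction no more than without it. With only the groups compared they were 0 (DHT in control), 2 (DHT in KO), 0 (KO in EtOH), 2 (KO in DHT), 14 (KO in FM), 3 (FM in control) and 13 (FM in KO), and 11 for the KO effect in FM minus in DHT. Of all genes 1435, 3094, 551, 1919, 5065, 4160, 7254 and 1658 were called in that order. edgeR called 1 for KO in DHT. With the length trend removed there were 3 calls for KO in EtOH, 12 for FM in control and 11 for FM in KO, and the median for KO in FM was 0.04. With length and GC trends removed there were 4, 11 and 12, and 1 for KO in FM, and NDUFS1 reversed to 0.04 for KO in FM and -0.06 for FM in control.

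Same-numbered samples did not deviate together on average (mean correlation 0.03 over 15 pairs of groups), though single pairs of groups ran from -0.41 to 0.69. In both control EtOH and control DHT, replicate 2 was above replicate 1 in 34 of 35 members. The labels' numbers were not taken as pairs in the main fit. With the replicate block, KO in EtOH had 3 calls (1 higher, 2 lower), the FM response difference had 1 mitochondrially encoded call, and NDUFB4 for KO in DHT (adjusted p 0.0528) and NDUFS1 for KO in FM (adjusted p 0.0528) were lost in DESeq2.

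Leaving out each sample in turn, the calls ranged from 0 to 11 (DHT in control), 0 to 20 (KO in EtOH), 0 to 11 (KO in DHT), 0 to 10 (KO in FM), 1 to 20 (FM in control), 1 to 9 (FM in KO), 0 to 21 (FM response difference) and 0 to 13 (KO effect in FM minus in DHT), and the median for KO in FM from 0.04 to 0.20. Where this left 1 sample in a group, it was assumed to vary like the other groups. NDUFS7 for KO in EtOH ranged from -0.49 to 0.67, reversed without control EtOH replicate 2. The cause of these changes was not tested.

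Of the 7 mitochondrially encoded subunits, KO in DHT had 0 calls with edgeR, TMM size factors and either trend removed, KO in FM had 2 with both trends removed, FM in control had 1 with the length trend removed, and the FM response difference had 0 with edgeR or both trends removed and 1 with the length trend removed. Leaving out a sample gave 0 to 3 (KO in EtOH), 0 to 1 (KO in DHT), 2 to 7 (KO in FM), 2 to 3 (FM in control), 4 to 7 (FM in KO) and 0 to 6 (FM response difference). These, the KO effect in FM minus in DHT and the other lists without single samples were examined after the data were seen. The members with under 100 counts on average (NDUFV2, NDUFA7, NDUFA13, NDUFA4L2) had standard errors of at least 0.41.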
